A study of Homo sapiens with 6 samples.

Results

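Messenger RNA of 45 genes of the NF-κB pathway and of its cytokine, chemokine and tumour necrosis factor (TNF) families was compared between control and tRF-1-Ser knockdown MDA-MB-453 cells. The genes were chosen by symbol, with earlier results of these data known. They were 21 pathway components, 20 ligands and 4 other genes, of 36517 genes in the count table. CXCL3 was not analysed here, which left 44 genes with counts. MDA-MB-453 is a human breast cancer cell line. The control group (3 libraries) received lentivirus with a negative-control hairpin, and the shtRF group (3 libraries) received lentivirus with a hairpin against tRF-1-Ser. This small RNA is derived from the precursor of a serine transfer RNA. Both groups were sampled at day 3, and the study describes them as stable cells. No agent that activates NF-κB is named for either group. The labels and methods name 1 hairpin against tRF-1-Ser, so effects of the knockdown and of that hairpin sequence cannot be told apart, and tRF-1-Ser itself is not measured in messenger RNA libraries. The study calls the replicates biological, but whether they came from separate transductions is not stated, so the p-values measure only the spread between these libraries.

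NF-κB is a family of transcription factors built as dimers of Rel subunits. In resting cells IκB proteins hold the dimers in the cytoplasm. Signals from TNF and interleukin receptors pass through TRAF adaptors to the IκB kinase complex, which marks IκB for destruction, and the freed dimers switch on cytokines, chemokines, adhesion molecules and inhibitors of the pathway itself, such as IκBα and A20. The DNA element bound by the dimers is the κB site.

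The promoter sequences of the genes show which of them carry a match to the κB consensus, a motif of 10 bases searched on both strands, in which overlapping matches can occur at one place. The RefSeq windows (GRCh38.p14) run from 250 bases before to 50 bases after the start site, and 35 of the 45 genes had at least 1 window. A match was present in 19 of these 35 genes, and in 22 of their 51 windows (43.1%), against 11.3% of all 35116 windows of the same length. The list includes known NF-κB targets, so a larger share was likely in advance, and the shares do not test an excess. No share by gene was taken over all genes. Stretches of 40 bases, 5′ to 3′ on the gene's strand and with the matched bases in capitals, are shown for genes that fell, that rose, that did not pass the test, and that were below detection in these cells.
Fell, REL, chr2:60881512-60881551, plus strand: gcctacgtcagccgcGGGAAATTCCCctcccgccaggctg
Fell, NFKBIA, chr14:35404806-35404845, minus strand: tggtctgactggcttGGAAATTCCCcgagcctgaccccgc
Fell, TRAF3, chr14:102777401-102777440, plus strand: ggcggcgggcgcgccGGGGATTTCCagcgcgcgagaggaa
Rose, NFKB2, chr10:102394456-102394495, plus strand: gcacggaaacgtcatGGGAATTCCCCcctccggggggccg
Rose, NFKBIB, chr19:38899926-38899965, plus strand: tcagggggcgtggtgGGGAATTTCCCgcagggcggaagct
Rose, NFKBIZ, chr3:101827752-101827791, plus strand: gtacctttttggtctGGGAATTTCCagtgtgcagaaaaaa
Rose, TNIP1, chr5:151081052-151081091, minus strand: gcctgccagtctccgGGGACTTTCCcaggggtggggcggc
Did not pass, NFKB1, chr4:102501295-102501334, plus strand: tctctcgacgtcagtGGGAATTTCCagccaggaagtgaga
Did not pass, TNFAIP3, chr6:137867177-137867216, plus strand: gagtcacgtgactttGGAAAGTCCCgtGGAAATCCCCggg
Below detection, CXCL1, chr4:73869299-73869338, plus strand: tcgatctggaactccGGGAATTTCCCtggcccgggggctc
Below detection, CXCL2, chr4:74099249-74099288, minus strand: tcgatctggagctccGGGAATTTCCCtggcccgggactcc
Below detection, IL6, chr7:22727112-22727151, plus strand: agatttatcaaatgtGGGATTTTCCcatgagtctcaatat

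By outcome, a match stood in 3 of the 4 genes with a window that fell, in 4 of 9 that rose, in 4 of 11 that did not pass the test, in 4 of 6 with too few counts to test and in 3 of 4 that were below detection, besides CXCL3. The same 11 bases lay 28 bases before the NFKBIB start site, where the messenger rose, and 79 bases before that of CXCL1, which was not detected. TRAF1, which fell, and RELA, IKBKE, IKBKG, TNFSF10 and ICAM1, which rose, had no match in these windows. A match is a description of the letters and not a measured site.

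The libraries held 63541413 to 78917459 counts. A difference was called where the adjusted p of edgeR's quasi-likelihood test was under 0.05, and 39.5% of the 19628 genes tested were called, 20.6% higher and 18.9% lower in shtRF. Levels of one gene across libraries are counts per 1000000 counted reads, scaled by edgeR's TMM factors (CPM). Where genes are compared, levels are reads per kilobase of exon per 1000000 counted reads, without that scaling (RPKM). The cells were checked against lists of cell type markers. All 8 luminal breast markers were at 1 RPKM or more in both groups, with a summed level of 774.3 to 782.1 RPKM in control and 955.5 to 1003 RPKM in shtRF. Of 8 leukocyte markers CD68 alone could be tested, and it rose from 4.71 to 6.97 CPM, while PTPRC and CD3E were at or near 0. Their summed level was 2.07 to 2.53 RPKM in control and 2.56 to 3.80 RPKM in shtRF, and 85.8% of the exonic bases of CD68 overlap another gene. The main overlapping gene, RP11-186B7.4 on the same strand, fell from 171.5 CPM in control to 126 CPM in shtRF (log2 fold change -0.45, adjusted p = 5.22e-06). Of 5 fibroblast markers COL1A1 fell from 32.2 to 20.9 CPM, DCN was at or near 0, and the sum was 3.06 to 3.70 RPKM in control and 2.05 to 2.19 RPKM in shtRF. The 4 endothelial markers summed to at most 0.0479 RPKM in any library. The part of these marker differences in the results was not tested.

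The components of the pathway were well measured in these cells, while most of the ligands had too few counts to test. All 21 components had enough counts to be tested, 16 of them at 1 RPKM or more in each group. Of the 20 ligands 7 could be tested, 8 had too few counts, 4 were below detection (at most 3 counts in every library), and only IL18, CXCL16 and TNFSF10 reached 1 RPKM. The median level in control cells was 5.00 RPKM for the components and 0.0353 RPKM for the 20 ligands, with CXCL3 entered as 0. The summed level of the components was 192.2 to 193.7 RPKM in control and 197.2 to 206.2 RPKM in shtRF, and that of the ligands was 9.42 to 9.82 and 11.3 to 12.8 RPKM. In the plot of levels by gene most ligands thus form a floor of near-zero values with 3 genes above it. These are bulk libraries, in which fewer cells making a messenger and less messenger per cell cannot be told apart.

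**Figure D1:**
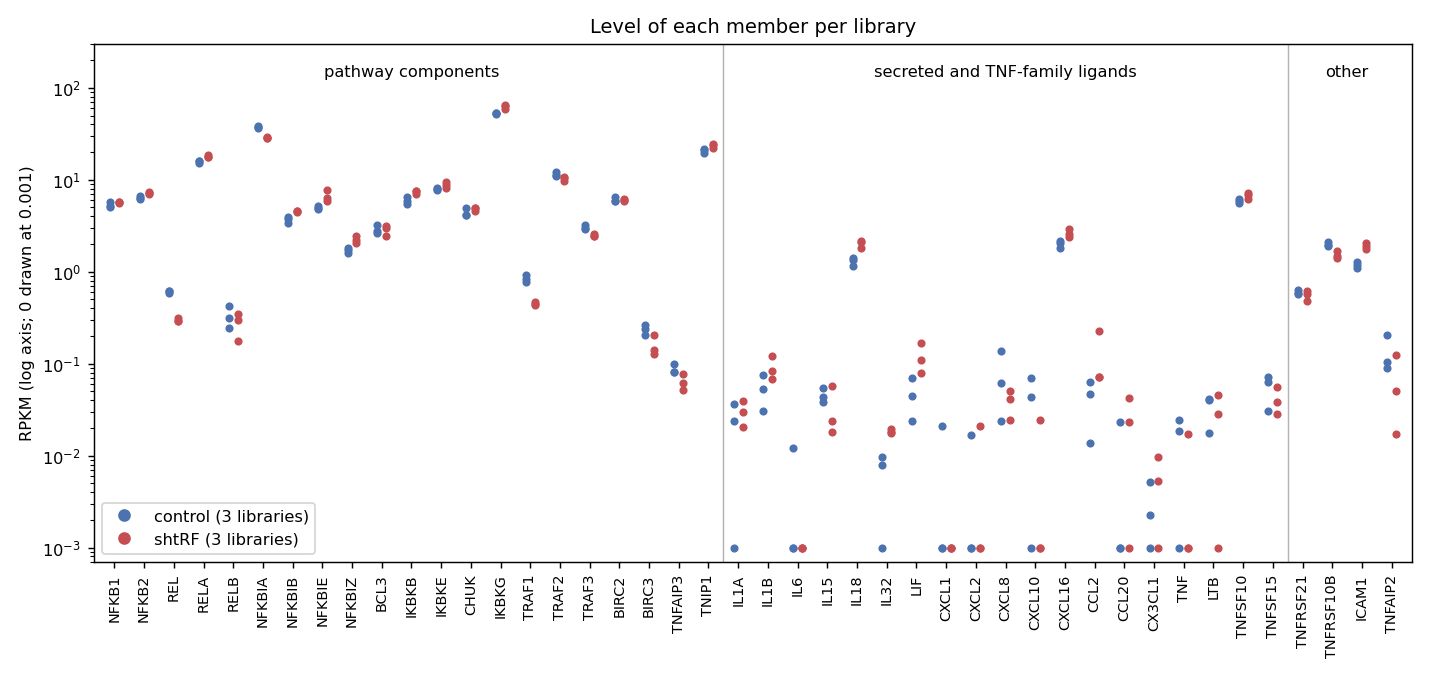
RPKM (log axis, zeros drawn at 0.001) of the 44 genes with counts, one point per library, blue for control and red for shtRF. Of the 21 components 16 have means of 1 RPKM or more, while among the ligands IL18, CXCL16 and TNFSF10 alone stand above 1 RPKM.

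Of the 32 tested genes 14 rose, 5 fell and 13 did not pass the test. That is 59.4% called, against the 39.5% of all tested genes, with 43.8% higher against 20.6% and 15.6% lower against 18.9%. Because the genes were chosen with earlier results of these data known, these shares describe the list and do not test an excess. The share called was larger among genes with more counts. Among genes with a mean of at least 2 CPM, 50.4% of all 13189 were called (27.1% higher, 23.3% lower), and 18 of the 24 listed genes at that level (75%) were called, 13 higher and 5 lower. The changes were small. Over 2-fold rises made up 2.66% of all tested genes and 1 of the 32 (LIF), and over 2-fold falls made up 3.11% of all and 0 of the 32. The 3 control and 3 shtRF values did not overlap for 20 of the 32, against 48.7% of all tested genes. The median log2 fold change was 0.15 over the 32 and -0.0025 over all tested genes.

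**Figure D2:**
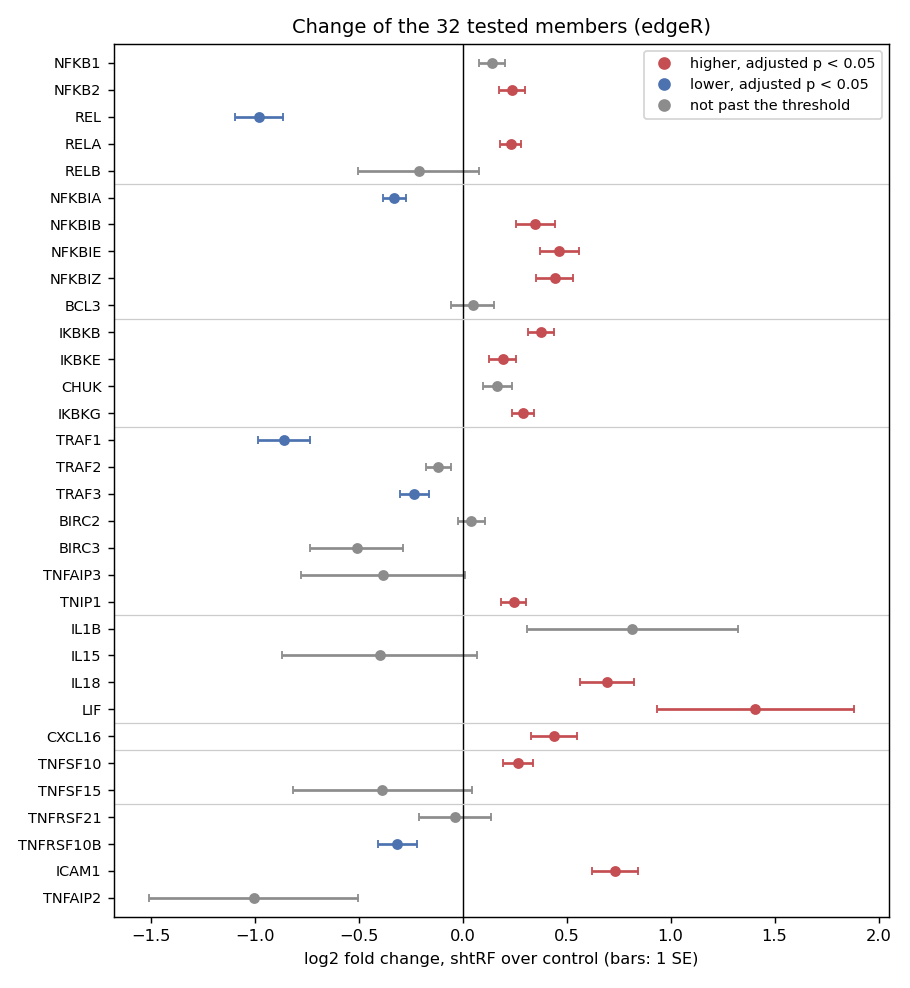
Log2 fold change of shtRF over control with its standard error for the 32 tested genes, ordered by role and separated by grey lines. Kinases lie on the right of 0, REL, TRAF1 and NFKBIA are called on the left, and the widest bars belong to genes with few counts such as LIF and TNFAIP2.

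Among the 5 Rel subunits NFKB2 and RELA rose, REL fell, and NFKB1 and RELB did not pass the test. REL (chr2:60881521-60931610, plus strand), which encodes c-Rel, a transactivating subunit best known from lymphocytes, was at 6.53, 6.83 and 6.85 CPM in control and at 3.25, 3.64 and 3.39 CPM in shtRF. Every shtRF library was thus far below every control library. The mean went from 6.74 ± 0.178 to 3.42 ± 0.200 CPM (SD, n = 3), a fall of 1.97-fold (log2 fold change -0.98 ± 0.12 SE, adjusted p = 5.18e-07). Of the exonic bases of REL, 50.7% are shared with RP11-373L24.1, a gene on the same strand that also fell (log2 fold change -0.86, adjusted p = 0.000296), and the part of this overlap in the result was not tested.

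RELA encodes p65, the main transactivating subunit. It was at 85.7, 82.0 and 87.3 CPM in control and at 101.5, 99.5 and 98.1 CPM in shtRF (log2 fold change 0.23 ± 0.052 SE, adjusted p = 0.00111). NFKB2, the precursor of p52 of the non-canonical pathway, was at 29.0, 27.5 and 27.4 CPM in control and at 32.2, 32.8 and 34.1 CPM in shtRF (log2 fold change 0.24 ± 0.061, adjusted p = 0.00352). For both genes every shtRF library lay above every control library. NFKB1, the precursor of p50, was at 31.0, 35.1 and 32.2 CPM in control and at 35.5, 36.9 and 36.0 CPM in shtRF. Its groups did not overlap, but its log2 fold change of 0.14 ± 0.062 did not pass (adjusted p = 0.0759), and it passed without control replicate 2, the highest control value (adjusted p = 0.0359). RELB, the partner of p52, was at 0.938, 1.25 and 0.727 CPM in control and at 1.04, 0.553 and 0.919 CPM in shtRF, groups that overlap (log2 fold change -0.21 ± 0.29, adjusted p = 0.611). Per length, the order in control was RELA at 15.8, NFKB2 at 6.36, NFKB1 at 5.33, REL at 0.610 and RELB at 0.326 RPKM. In shtRF it was RELA at 17.9, NFKB2 at 7.22, NFKB1 at 5.67, REL at 0.298 and RELB at 0.272 RPKM, so REL and RELB, neighbours in this order, no longer stood apart in shtRF.

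The IκB inhibitors and IκB-like proteins did not move together: 3 rose, NFKBIA fell and BCL3 did not pass the test. NFKBIA (chr14:35401511-35404749, minus strand) encodes IκBα, the classical inhibitor and itself a textbook NF-κB target. It was at 89.0, 83.9 and 88.4 CPM in control and at 66.6, 72.7 and 68.7 CPM in shtRF. All 3 shtRF libraries lay below all 3 control libraries (log2 fold change -0.33 ± 0.054, adjusted p = 4.71e-05). The inhibitors IκBβ and IκBε went the other way. NFKBIB was at 8.92, 7.61 and 8.64 CPM in control and at 10.3, 10.97 and 10.8 CPM in shtRF (log2 fold change 0.35 ± 0.092, adjusted p = 0.00412). NFKBIE was at 12.4, 13.1 and 12.6 CPM in control and at 16.2, 15.8 and 20.5 CPM in shtRF (log2 fold change 0.47 ± 0.092, adjusted p = 0.000303). Neither pair of groups overlapped, and shtRF replicate 3 was the highest for NFKBIE. NFKBIZ encodes IκBζ, a nuclear IκB-like protein that acts as a cofactor at a subset of targets. It was at 9.24, 9.93 and 10.6 CPM in control and at 13.0, 12.8 and 14.7 CPM in shtRF (log2 fold change 0.44 ± 0.089, adjusted p = 0.000352). BCL3, another nuclear family member, had a log2 fold change of 0.048 ± 0.10 (adjusted p = 0.757).

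NFKBIA was the most abundant inhibitor, at 37.4 RPKM in control and 28.7 RPKM in shtRF, against 5.00 and 6.66 RPKM for NFKBIE. Per length, the ratio of NFKBIA to RELA messenger was 2.39, 2.36 and 2.33 with the control hairpin and 1.51, 1.68 and 1.61 with shtRF, a mean of 2.36 ± 0.030 against 1.603 ± 0.086 (SD, n = 3). This ratio restates the opposite changes of the 2 messengers and is no measure of the proteins. The summed level of the 5 genes of this family, the IκB-like NFKBIZ and BCL3 included, was 49.2 to 51.7 RPKM in control and 44.4 to 46.0 RPKM in shtRF.

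Of the 4 IκB kinase genes 3 rose and CHUK did not pass the test. IKBKB encodes IKKβ, the kinase of the canonical pathway, and was at 65.6, 58.4 and 54.7 CPM in control and at 76.9, 75.1 and 80.2 CPM in shtRF (log2 fold change 0.38 ± 0.063, adjusted p = 4.43e-05). IKBKG encodes the scaffold NEMO and was the most abundant of all 44 genes, at 179.4, 185.0 and 184.0 CPM in control and at 229.1, 214.0 and 227.9 CPM in shtRF (log2 fold change 0.29 ± 0.052, adjusted p = 0.000109). In both the groups stood apart. IKBKG has a near-identical partial copy nearby, between which the counting may split reads, so its level is uncertain. IKBKE encodes IKKε, a related kinase found amplified in some breast cancers, and was at 30.5, 29.2 and 29.3 CPM in control and at 35.8, 34.4 and 31.4 CPM in shtRF (log2 fold change 0.19 ± 0.064, adjusted p = 0.0203). Its call was lost without control replicate 2 (adjusted p = 0.0767), without shtRF replicate 1 (0.134) or replicate 2 (0.0737), under upper quartile scaling (0.0591) and on both log2 RPKM scales (0.158 and 0.163). CHUK encodes IKKα and had a log2 fold change of 0.17 ± 0.070 (adjusted p = 0.0653), which passed without control replicate 3 (0.00248) and with a replicate block (0.0329).

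Among 7 adaptors and feedback regulators TNIP1 rose, TRAF1 and TRAF3 fell and 4 did not pass the test. TRAF1 (chr9:120902393-120929173, minus strand), an adaptor of TNF receptors and a known NF-κB target, was at 5.35, 5.80 and 4.99 CPM in control and at 2.81, 3.01 and 3.08 CPM in shtRF. The groups stood well apart, and the mean went from 5.38 ± 0.407 to 2.97 ± 0.144 CPM (SD, n = 3), a fall of 1.81-fold (log2 fold change -0.86 ± 0.13 SE, adjusted p = 1.09e-05). TRAF3, which restrains the non-canonical pathway, was at 24.0, 23.4 and 26.2 CPM in control and at 20.1, 21.9 and 20.7 CPM in shtRF (log2 fold change -0.23 ± 0.070, adjusted p = 0.0114). This call was lost without control replicate 3 (adjusted p = 0.0537) or shtRF replicate 1 (0.0514). TNIP1 encodes ABIN1, a partner of A20, and was at 122.7, 120.3 and 111.6 CPM in control and at 128.1, 149.0 and 143.6 CPM in shtRF (log2 fold change 0.25 ± 0.060, adjusted p = 0.00227). TRAF2 and BIRC2, which work together at TNF receptors, had log2 fold changes of -0.12 ± 0.061 (adjusted p = 0.141) and 0.042 ± 0.065 (0.656). TNFAIP3, the gene of A20, had 18 to 32 counts in every library (log2 fold change -0.38 ± 0.39, adjusted p = 0.481). BIRC3, the inducible relative of BIRC2, had 98 to 156 counts in control and 66 to 111 in shtRF (log2 fold change -0.51 ± 0.22, adjusted p = 0.0760). It passed without shtRF replicate 2, its highest shtRF library (adjusted p = 0.0165).

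**Figure D3:**
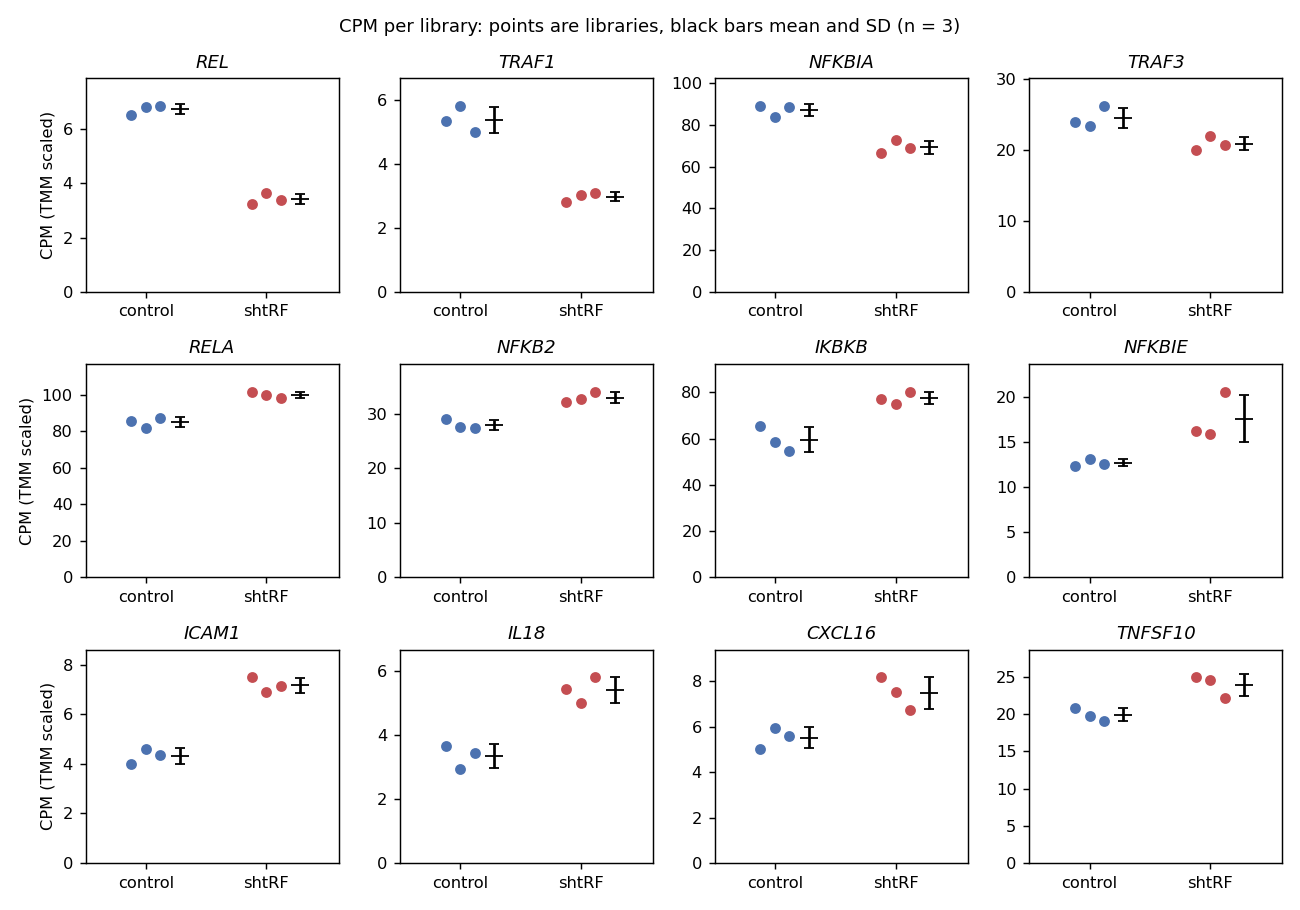
CPM of 12 genes in every library (points) with the mean and SD of each group (black bars, n = 3), each panel starting at 0. The 3 shtRF points lie below the control points for REL, TRAF1, NFKBIA and TRAF3 and above them in the other 8 panels.

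Of the 7 ligands that could be tested 4 rose, 0 fell and IL1B, IL15 and TNFSF15 did not pass the test. IL18 (chr11:112143251-112164117, minus strand), a cytokine made as an inactive precursor by many epithelia, was at 3.64, 2.93 and 3.45 CPM in control and at 5.42, 4.98 and 5.79 CPM in shtRF. The groups did not overlap, and the mean went from 3.34 ± 0.370 to 5.40 ± 0.405 CPM (SD, n = 3), a rise of 1.62-fold (log2 fold change 0.69 ± 0.13 SE, adjusted p = 0.000169). CXCL16, a chemokine that is also found as a membrane-bound form, was at 5.01, 5.93 and 5.61 CPM in control and at 8.17, 7.53 and 6.76 CPM in shtRF (log2 fold change 0.44 ± 0.11, adjusted p = 0.00290). TNFSF10 encodes TRAIL, a ligand that can trigger apoptosis, and was at 20.9, 19.8 and 19.2 CPM in control and at 25.0, 24.6 and 22.2 CPM in shtRF (log2 fold change 0.27 ± 0.071, adjusted p = 0.00476). Every shtRF library of these genes lay above every control library, but the call on TNFSF10 was lost on both log2 RPKM scales (adjusted p = 0.0549 and 0.0592).

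LIF, a cytokine of the interleukin-6 family, had 6, 13 and 22 counts in control and 22, 48 and 28 in shtRF, or a mean of 0.180 and 0.488 CPM. It had the largest rise of the 32 (log2 fold change 1.41 ± 0.47, adjusted p = 0.0215). At these counts the call was not stable: it was lost without control replicate 1 (adjusted p = 0.106) or 2 (0.0721), without shtRF replicate 2 (0.161) or 3 (0.0509), and on both log2 RPKM scales (0.0549 and 0.0817). LIF and IL1B reached the count filter in all 3 shtRF libraries and in 2 control libraries, and IL15 in 3 control and 2 shtRF libraries. IL1B had 6 to 17 counts in control and 15 to 24 in shtRF (log2 fold change 0.82 ± 0.51, adjusted p = 0.219). IL15 and TNFSF15 had log2 fold changes of -0.40 ± 0.47 and -0.39 ± 0.43.

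The inflammatory ligands best known as NF-κB outputs were at or near the floor in both groups. IL6, CXCL1, CXCL2 and TNF had at most 3 counts in any library, and IL6 and CXCL1 had 0 in all 3 shtRF libraries. A floor of 3 counts corresponds to 0.038 to 0.0472 CPM per library, for counting error only, so these genes were not detectable at this depth rather than absent. CXCL1 and CXCL2 are close copies of each other, whose reads the counting may split. CXCL8, which encodes interleukin-8, had 20, 4 and 11 counts in control and 8, 4 and 6 in shtRF. CCL2, the monocyte attractant, had 6, 2 and 10 counts in control and 10, 32 and 9 in shtRF, with shtRF replicate 2 far above the others. IL1A, IL32, CXCL10, CCL20, CX3CL1 and LTB had 0 to 6 counts per library. None of these 12 ligands could be tested, and no direction is given for them.

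Outside the core and the ligands, ICAM1 rose, TNFRSF10B fell, and TNFRSF21 and TNFAIP2 did not pass the test. ICAM1 (chr19:10270835-10286615, plus strand), a cell-surface adhesion molecule for leukocytes and a textbook NF-κB target, was at 3.997, 4.61 and 4.35 CPM in control and at 7.49, 6.89 and 7.16 CPM in shtRF. The groups were far apart, and the mean went from 4.32 ± 0.306 to 7.18 ± 0.301 CPM (SD, n = 3), a rise of 1.66-fold (log2 fold change 0.73 ± 0.11 SE, adjusted p = 1.41e-05). Of its exonic bases 23.6% overlap CTD-2369P2.8 on the opposite strand, which had a log2 fold change of 0.64 (adjusted p = 0.228). TNFRSF10B encodes DR5, a receptor of TRAIL, and was at 10.6, 9.71 and 9.65 CPM in control and at 8.69, 7.88 and 7.499 CPM in shtRF (log2 fold change -0.31 ± 0.094, adjusted p = 0.0106). This call was lost without shtRF replicate 3 (adjusted p = 0.0644). TNFRSF21, the death receptor DR6, had a log2 fold change of -0.037 ± 0.17 (adjusted p = 0.895). TNFAIP2, a gene first found as induced by TNF, had 66, 39 and 36 counts in control and 6, 18 and 40 in shtRF (log2 fold change -1.005 ± 0.50, adjusted p = 0.121). It passed without shtRF replicate 3, which lay within the control range (adjusted p = 0.0113), and with no count filter (0.0307).

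Set side by side, the 21 components had 9 rises, 4 falls and 8 genes that did not pass, and their median change was 0.14 on the log2 scale, while the ligands had 4 rises and 3 that did not pass, with a median of 0.44 over the 7 that could be tested. The share called was 61.9% of the components and 57.1% of the tested ligands, against 39.5% of all tested genes. At a mean of 2 CPM or more it was 72.2% of 18 components and 3 of 3 ligands, against 50.4% of all genes at that level. The median of all tested genes was -0.0025. The ligand median covers only genes above the count filter and 3 of them at over 2 CPM, so no difference between components and ligands was tested. Textbook targets of the pathway stood on both sides. NFKBIA and TRAF1 fell, ICAM1 and NFKB2 rose, and TNFAIP3 and BIRC3 did not pass.

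Other genes of the pathway were called in both directions. Of 40 receptors 22 could be tested, of which 8 rose, 3 fell and 11 did not pass (median log2 fold change 0.072). That is 36.4% higher and 13.6% lower, 50% in all, against 20.6%, 18.9% and 39.5% of all tested genes. Of the 8, CXCR1 and TNFRSF10C reached the count filter in all 3 shtRF libraries but in 0 and 1 control libraries, so they were tested because of the group in which they were high. The count of 8, the 36.4% and the median include both genes and are not read as an excess over all tested genes. TNFRSF12A, the receptor of the cytokine TWEAK, was at 12.3, 13.5 and 12.5 CPM in control and at 33.1, 34.6 and 31.9 CPM in shtRF. This was the largest rise among receptors of at least 2 CPM (log2 fold change 1.38 ± 0.070, adjusted p = 9.71e-13). TNFRSF10A, the TRAIL receptor DR4, rose by 0.62 ± 0.081 on the log2 scale (10.9 to 16.8 CPM). Of its exonic bases 16.6% lie in another gene that also rose (RP11-1149O23.3, log2 fold change 0.74), and the part of this overlap was not tested. DR4 and DR5, both receptors of TRAIL, thus had changes of opposite sign. IL17RA, a receptor of interleukin-17, rose from 35.2 to 40.8 CPM. IL1R1, the interleukin-1 receptor, was abundant, at 340.4 CPM in control, and fell to 267.7 CPM in shtRF (log2 fold change of -0.35 ± 0.052, adjusted p = 1.48e-05). TNFRSF1A, the main receptor of TNF, fell from 19.1 to 15.6 CPM, with a log2 fold change of -0.28 ± 0.087 (adjusted p = 0.0126). Without shtRF replicate 3 the receptors held 4 rises and 1 fall.

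Of 45 adaptors, ubiquitin enzymes and kinases 42 could be tested, of which 16 rose, 5 fell and 21 did not pass (median log2 fold change 0.14). The shares were 38.1% higher and 11.9% lower, 50% in all. Of all tested genes 39.5% were called, and of those at 2 CPM or more 50.4%. The 42 include IRAK3 and MAP3K8, which lay under 2 CPM. TRAF5, an adaptor of TNF receptors, was at 19.4, 20.6 and 20.7 CPM in control and at 52.5, 52.1 and 52.8 CPM in shtRF (log2 fold change 1.38 ± 0.059, adjusted p = 6.08e-14), opposite to TRAF1 and TRAF3. OTUD7B, a deubiquitinase that acts on TRAF3, rose from 189.0 to 355.2 CPM, with a log2 fold change of 0.91 ± 0.054 (adjusted p = 1.38e-11). NKIRAS1, an inhibitor of IκB breakdown, rose from 21.1 to 40.5 CPM, with a log2 fold change of 0.94 ± 0.068 and 13.0% of its exonic bases in RPL15, which fell. The named falls were smaller. RNF31, a ligase of linear ubiquitin chains, went from 37.3 to 29.1 CPM and UBE2V1, a ubiquitin-conjugating cofactor, from 55.6 to 45.01 CPM, but 39.1% and 42.9% of their exonic bases lie in other genes that also fell. TANK, a TRAF-binding scaffold, fell from 40.5 to 35.6 CPM. Without control replicate 1 the number of rises was 10.

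Of 54 further target genes 31 could be tested, of which 6 rose, 8 fell and 17 did not pass (median log2 fold change -0.12). The 45.2% called (19.4% higher, 25.8% lower) lay near the 39.5% of all tested genes (20.6% higher, 18.9% lower). AREG, a growth factor of the EGF family, rose from 3.59 to 6.17 CPM, with a log2 fold change of 0.78 ± 0.12 (adjusted p = 2.15e-05). BCL2L1, an inhibitor of apoptosis, rose from 59.9 to 94.7 CPM, with 43.0% of its exonic bases in ABALON, which also rose, and LAMB3, a laminin chain, rose from 4.51 to 5.995 CPM. GADD45B, a stress-response gene that restrains JNK signalling, was at 7.15, 6.54 and 6.69 CPM in control and at 3.05, 4.43 and 3.999 CPM in shtRF (log2 fold change -0.83 ± 0.13, adjusted p = 2.34e-05). CFLAR, the caspase-8 inhibitor c-FLIP, fell from 85.6 to 67.2 CPM, with a log2 fold change of -0.35 ± 0.054 (adjusted p = 1.80e-05) and 12.03% of its exonic bases in a pseudogene. IER3, an immediate early gene, fell from 26.0 to 20.5 CPM, with 26.5% of its exonic bases in another gene that also fell. The number of falls was 4 without control replicate 1 and 5 without shtRF replicate 1, 2 or 3, and the number under 10% exon overlap was 3 of 23 tested.

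**Figure D4:**
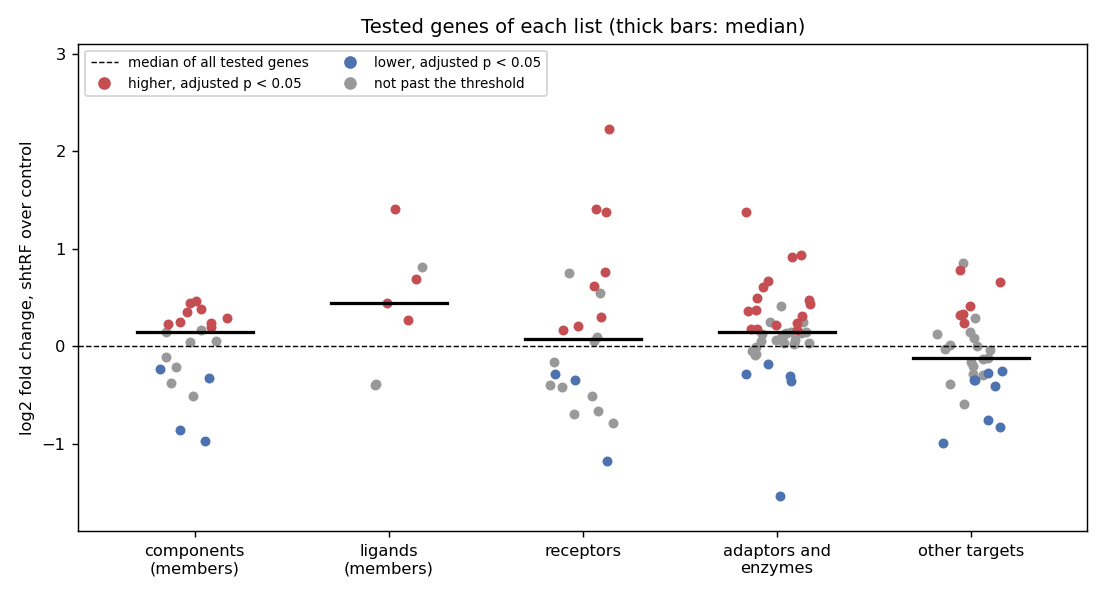
Log2 fold change of shtRF over control for every tested component, ligand, receptor, adaptor or enzyme and further target, one point per gene coloured by its call, with the list's median as a thick bar. Red and blue points stand in 4 of the 5 columns, and in the ligands there is no blue point. The red receptor points include CXCR1 and TNFRSF10C, which reached the count filter through the shtRF libraries. The dashed line is the median of all tested genes.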

How the data were processed

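Stranded messenger RNA libraries of 6 MDA-MB-453 samples (3 control, 3 shtRF, grouped by their titles) were sequenced as read pairs. The submitters' processing notes name Trimmomatic 0.36, featureCounts of Subread 1.5.1, edgeR 3.12.1 and GRCh38, and the aligner is not given in the sources used here. The authors deposited raw read counts per gene with exonic length (36517 genes). They also deposited an RPKM table. RPKM was recomputed from counts and length and equalled theirs within 0.001 for 100% of the 4991 genes compared. Between 74.2% and 77.1% of counts from 1 to 4 were even, so both mates of a pair were probably counted. Strand use in counting is not stated.

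Counts were tested with edgeR 4.0.16 (R 4.3.3): at least 10 counts by filterByExpr, TMM scaling, quasi-likelihood test of group alone, and Benjamini-Hochberg adjustment over 19628 genes. A standard error was derived from the estimate and its F statistic. The script was tested on simulated data. Alternatives were DESeq2 1.42.0, limma-trend 3.58.1 on log2(RPKM + 1) and log2(RPKM + 0.1), other scalings and filters, halved counts, genes under 10% exon overlap, a replicate block and leaving out each library. Exon overlap was taken between genes of the table on either strand. Promoters are from RefSeq.

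The genes and lists were chosen with earlier results of these data known. Of the 45 genes, values in every library are given for those called with a mean of at least 2 CPM and for the Rel subunits. From each further list the 3 largest rises and falls at that level with groups that do not overlap are named (2 falls met this among receptors).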

Additional observations from a re-analysis of the deposited data

How the results depend on the processing

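Of 530 values of the 32 tested genes under 17 alternatives, 498 kept their direction and side of the threshold, 17 lost the call and 6 gained it, on 9 genes (BIRC3, CHUK, IKBKE, LIF, NFKB1, TNFAIP2, TNFRSF10B, TNFSF10 and TRAF3). The other 9 changed sign, in 4 genes that were called neither before nor after. On log2(RPKM + 1) and log2(RPKM + 0.1), BCL3 was at -0.0047 and -0.0071 and BIRC2 at -0.0091 and -0.010. Leaving out 1 library gave -0.020 to 0.14 for BCL3, -0.41 to 0.019 for RELB and -0.13 to 0.074 for TNFRSF21. The causes were not tested. REL and ICAM1 were left out where exon overlap was kept under 10%. On log2(RPKM + 1), which shrinks low genes by construction, the change of REL was -0.31 and that of TRAF1 -0.35, both still called. Leaving out 1 library gave 12 to 15 rises and 4 to 6 falls among the 32 or 33 listed genes then tested, and 3 to 4 rises among ligands. It gave 4 to 8 rises and 1 to 3 falls among receptors, 10 to 17 rises among adaptors and enzymes, and 4 to 7 falls among further targets. Over all tested genes it gave 3375 to 3950 rises (against 4046) and 3053 to 3601 falls (against 3704). On log2(RPKM + 1) and log2(RPKM + 0.1), ligand rises were 2 and 2 (against 4), receptor rises 3 and 4 (against 8), adaptor rises 10 and 9 (against 16), target rises 3 and 3 (against 6) and target falls 5 and 5 (against 8), and receptor falls were 1 on the first scale (against 3). Rises over all 19628 tested genes also became fewer on these scales, at 2900 and 2903 (against 4046), while falls were 3803 and 3840 (against 3704). Under 10% exon overlap, adaptor falls were 3 of 31 tested and target falls 3 of 23, with fewer genes tested by construction. Of all genes 13737 were then tested, of which 2828 rose and 2894 fell. The replicate numbers were not shown to pair the samples (deviation correlations 0.059, 0.018 and 0.017). With the replicate block 15 of the 32 rose and 5 fell, 10 components rose and 4 fell, 4 ligands rose, 7 receptors rose and 3 fell, 18 adaptors rose and 5 fell, and 6 targets rose and 7 fell. With 63541413 to 78917459 counts per library, TNFAIP3, IL1B, IL15, LIF, TNFSF15 and TNFAIP2, all at 66 counts or fewer in every library, had standard errors of 0.39 to 0.51 on the log2 scale.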

Other observations

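Some of the largest changes in the pathway lists lay under 2 CPM, outside the rule for naming, and were chosen after their values were seen. MAP3K8, a kinase upstream of NF-κB and of the ERK pathway, had 48, 95 and 109 counts in control and 34, 20 and 24 in shtRF, so the groups did not overlap (log2 fold change -1.53 ± 0.32 SE, adjusted p = 0.000528, edgeR). CXCR1, a receptor of interleukin-8, had 2, 6 and 10 counts in control and 36, 28 and 14 in shtRF. TNFRSF10C, a decoy receptor of TRAIL, had 5 to 12 counts in control and 15 to 23 in shtRF. CXCR1 and TNFRSF10C reached the count filter through the shtRF libraries (0 and 1 control libraries reached it). No test value is therefore given for them, although both are included in the count of receptor rises above. TNFRSF13C, the receptor of the B cell factor BAFF, had 24 to 44 counts in control and 12 to 16 in shtRF (log2 fold change -1.18 ± 0.43, adjusted p = 0.0323).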
